A study of Mus musculus with 15 samples.

Results

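The trophoblast lineage genes examined here are Tead4, Tfap2c, Tfap2a, Gata2, Gata3, Elf3, Elf5, Hand1 and Plac1, 9 of the 23412 genes listed in every library. These 9 genes and the other lists below were chosen by name with earlier results of these data known. Their shares beside those of all genes are therefore descriptive only. Each of the 9 was read by its symbol in all 15 libraries. The libraries were polyA-selected RNA from mouse embryonic stem cells (ESCs) of the male v6.5 line, sequenced in 5 conditions with 3 replicates each. The conditions were wild-type (WT) siGLO, Stag1-/- siGLO, Stag2-/- siGLO, WT siStag1 and Stag2-/- siStag1. STAG1 and STAG2 are alternative subunits of cohesin, the ring complex that shapes chromosome folding, and the study asks what each contributes to gene expression. All 5 conditions, controls included, received 50 nM of siRNA, either the siGLO transfection control or a pool against Stag1, and were harvested after 48 h. Each knockout is 1 CRISPR-Cas9 clone with a deletion in the targeted gene, so a difference between genotypes cannot be told apart from a difference between clones. Nothing in the labels says that the replicates of a condition were grown as separate cultures, and the p-values measure only the spread between these libraries.

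Trophectoderm is the outer layer of the blastocyst, and it gives rise to the trophoblast cells of the placenta. TEAD4, a DNA-binding partner of the Hippo pathway coactivator YAP, stands at the head of this programme, and the AP-2 factor TFAP2C and the zinc finger factor GATA3 act with it. ESCs come from the inner cell mass and do not normally form trophoblast, although some of these regulators, such as Tfap2c, are also used in ESCs. ELF5 keeps trophoblast stem cells in their lineage, HAND1 drives the formation of trophoblast giant cells, and Plac1 encodes a placental protein.

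The libraries had 14982560 to 19070126 counts on genes, and 14508 genes were tested. The embryonic stem cell markers were abundant, with a summed level over 10 genes of 4426 to 7161 CPM (counts scaled to the depth of each library). Of 25 placental differentiation genes, 8 had no count in any library: Synb, Prl3d1, Prl2c2, Prl3b1, Tpbpa, Ctsq, Cts7 and Psg23. The label of ESCs is thus met by their markers, and these placental genes were not detected, where a count of 0 allows up to 3 counts, or 0.157 to 0.200 CPM. Stag2 counts were lower in the Stag2-/- siGLO libraries (692 ± 40.9 normalized counts, SD, n = 3) than in WT siGLO (2331 ± 3.21), and Stag1 counts fell to 442 ± 83.1 in WT siStag1 and 692 ± 79.2 in Stag2-/- siStag1, from 2146 ± 138 in WT siGLO. In the Stag1-/- siGLO libraries Stag1 had 2023 ± 300.2 normalized counts, so the Stag1 count does not check the label of that clone. The study describes this line as carrying an in-frame deletion that keeps the transcript while the protein is not detected. Normalized counts are counts scaled to a common depth of the libraries.

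Another cell state moved with the knockout clones. All 10 primitive endoderm markers tested were lower in Stag1-/- siGLO, Stag2-/- siGLO and Stag2-/- siStag1 than in WT siGLO, where 9.93%, 14.4% and 21.3% of all genes tested were lower. Their summed level was 2367 to 2423 CPM in WT siGLO and 2158 to 2255 in WT siStag1, against 553 to 753 in Stag1-/- siGLO, 485 to 776 in Stag2-/- siGLO and 463 to 692 in Stag2-/- siStag1, and none of the 10, which include Gata4, Gata6, Sox17 and Pdgfra, was at 0 in all libraries of a condition. The part of this shift in the results below was not tested. In bulk RNA, fewer cells that express a gene and less RNA per cell cannot be told apart.

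Promoter windows, the 250 bases before an annotated start, were found in the RefSeq table (build GRCm38.p6) for 6 of the 9 genes, Elf3, Elf5, Gata2, Gata3, Tfap2a and Plac1, with 10 windows in all. Those of Elf3 and Gata2 are printed because both genes were lower in both Stag2-/- conditions, and that of Gata3 because it holds a cluster of AP-2 motifs. The motifs searched on both strands were GCCNNNGGC for AP-2 factors (TFAP2A, TFAP2C), GGAATG for TEAD factors and AGATAA for GATA factors, and capitals mark a match. The Elf3 window was shortened to the 154 bases that lie outside Elf3 exons in GENCODE M21 (chr1:135258569-135258722, minus strand), the Gata2 window is the first of 2 (chr6:88193641-88193890, plus strand), and the Gata3 window lies at chr2:9878601-9878850 (minus strand).

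Elf3: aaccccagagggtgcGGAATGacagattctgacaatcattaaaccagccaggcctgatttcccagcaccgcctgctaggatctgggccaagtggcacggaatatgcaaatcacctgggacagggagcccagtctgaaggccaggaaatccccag
Gata2: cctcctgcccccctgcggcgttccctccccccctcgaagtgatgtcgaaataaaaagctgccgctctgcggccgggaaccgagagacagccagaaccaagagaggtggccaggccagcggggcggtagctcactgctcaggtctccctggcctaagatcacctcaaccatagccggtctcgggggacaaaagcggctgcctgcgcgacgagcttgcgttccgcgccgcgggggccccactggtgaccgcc
Gata3: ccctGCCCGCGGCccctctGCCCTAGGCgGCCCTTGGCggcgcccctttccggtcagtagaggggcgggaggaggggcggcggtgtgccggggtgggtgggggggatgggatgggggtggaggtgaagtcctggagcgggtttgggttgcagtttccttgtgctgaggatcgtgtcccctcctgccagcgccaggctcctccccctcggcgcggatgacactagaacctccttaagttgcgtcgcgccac

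The Gata3 window has 3 AP-2 matches, at -246 to -238, -231 to -223 and -221 to -213 from the start, and Elf3 has 1 TEAD match at -235 to -230. The printed Gata2 window holds none of the 3 motifs, while the second Gata2 window (chr6:88198414-88198663), which lies within a Gata2 exon in GENCODE M21, has an AP-2 match at -222 to -214 and a TEAD match at -120 to -115. Among all 32851 windows of this length, 13.7% hold the AP-2 motif, 12.6% the TEAD motif and 9.99% the GATA motif, so that 1 match is common. The windows also differ in CpG content, with 22 CpG in the Gata2 window, 19 in that of Gata3 and 8 in the whole Elf3 window, against a median of 6.

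Elf3, Tfap2c and Tead4 were well expressed in WT siGLO cells and the other 6 genes were low. Per kilobase of exon, Elf3 had 20.2 ± 6.58 CPM (SD, n = 3), Tfap2c 12.8 ± 1.07 and Tead4 12.8 ± 2.11. Gata2 followed at 0.746 ± 0.297 CPM per kb, Hand1 at 0.554 ± 0.228, Gata3 at 0.398 ± 0.0246, Tfap2a at 0.221 ± 0.107, Plac1 at 0.161 ± 0.0469 and Elf5 at 0.0098 ± 0.0099. Within 1 SD, Elf3 overlapped with Tfap2c, Tfap2c with Tead4, Gata2 with Hand1, Hand1 with Gata3, and Tfap2a with Plac1, whereas Tead4 and Gata2, Gata3 and Tfap2a, and Plac1 and Elf5 were apart.

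Elf5 and Plac1 were too low to test. Elf5 (mm10 chr2:103411688-103450989, plus strand) had 0 to 5 counts per library with a median of 1, no count in 5 libraries, and 3 counts or fewer in 14 of 15. Its 5 counts came from Stag1-/- siGLO replicate 2. Plac1 (chrX:53069995-53240111, minus strand) had 0 to 12 counts with a median of 4, and 10 or more counts in 3 libraries. They were Stag1-/- siGLO replicates 1 and 3, with 10 and 12 counts, and Stag2-/- siStag1 replicate 1, with 11. For both genes the range of every condition overlapped with that of the next in the order of means. Without the filter on low counts no comparison of either gene passed, with edgeR adjusted p-values of 0.4 or higher, so no difference was detectable at this depth.

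**Figure D1:**
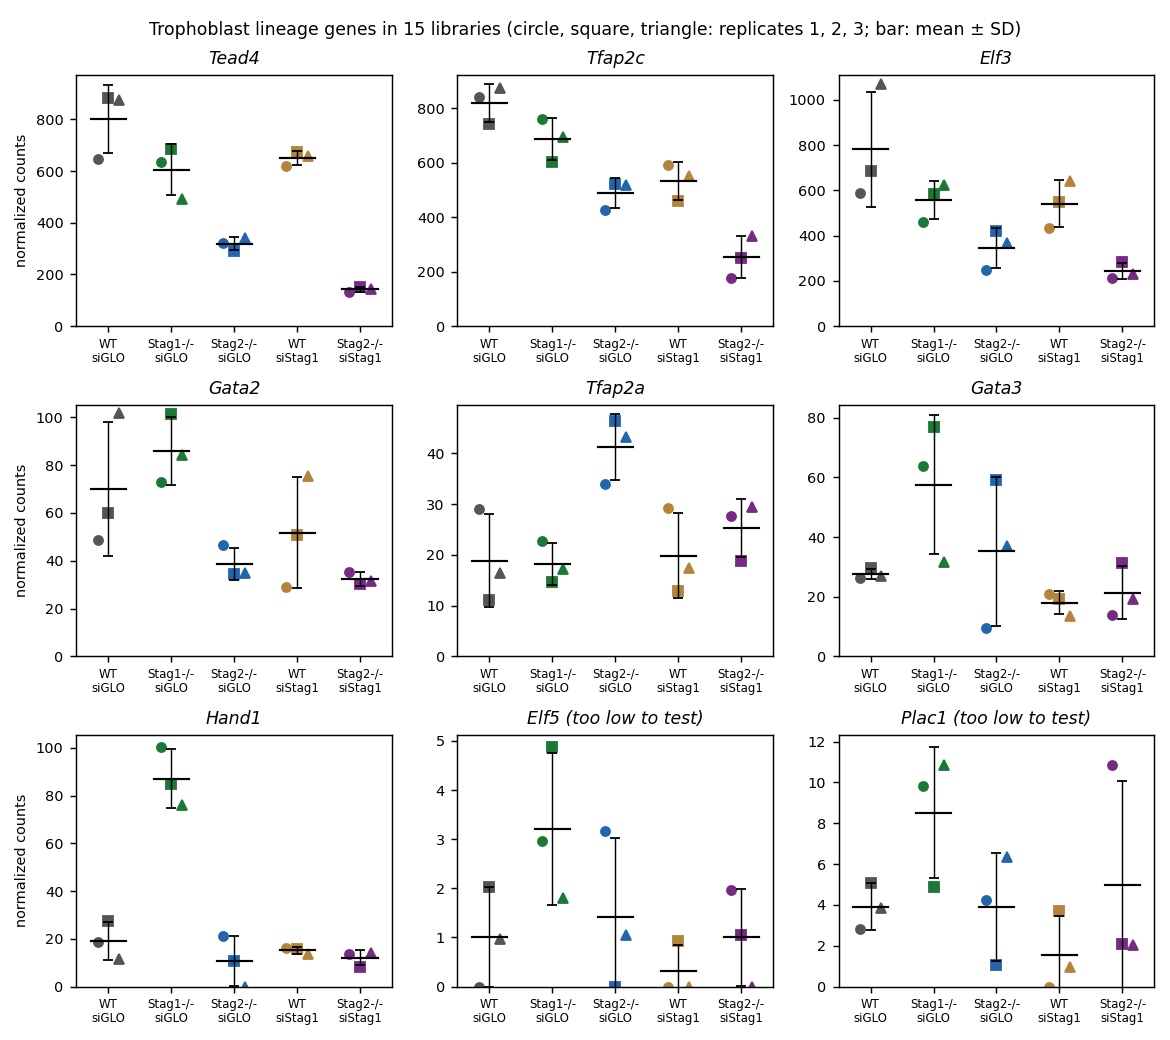
Normalized counts of the 9 genes (vertical axes, each from 0) in the 5 conditions (horizontal axes). Circles, squares and triangles are replicates 1, 2 and 3, and black lines give the mean and SD of the 3 libraries. The means of Tead4 and Tfap2c are highest in WT siGLO and lowest in Stag2-/- siStag1, where Tead4 lies between 132 and 151, Hand1 stands out in Stag1-/- siGLO at 75.9 to 100.4, and Elf5 never exceeds 4.87.

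Tead4 (chr6:128224288-128300823, minus strand) had 134 to 902 counts per library. Its normalized counts in replicates 1, 2 and 3 were 648, 881 and 873 in WT siGLO, 636, 683 and 494 in Stag1-/- siGLO, and 323, 292 and 341 in Stag2-/- siGLO. They were 620.0, 673 and 659 in WT siStag1 and 132, 151 and 145 in Stag2-/- siStag1. The Stag2-/- siGLO libraries lay below all those of the wild-type and Stag1-/- cells, and the Stag2-/- siStag1 libraries below all others, while WT siGLO, WT siStag1 and Stag1-/- siGLO overlapped.

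Tfap2c (chr2:172549593-172558622, plus strand) had 841, 743 and 876 normalized counts in WT siGLO, 761, 605 and 696 in Stag1-/- siGLO, and 425, 524 and 517 in Stag2-/- siGLO. In WT siStag1 it had 592, 458 and 550.4, and in Stag2-/- siStag1 178, 249 and 332. WT siGLO overlapped with Stag1-/- siGLO, and WT siStag1 with Stag2-/- siGLO. The Stag2-/- siStag1 libraries were again the lowest, with a gap to the next condition.

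The other AP-2 gene, Tfap2a (chr13:40715302-40738376, minus strand), which also marks surface ectoderm and neural crest, was low throughout and showed another order. It had 29.0, 11.2 and 16.5 normalized counts in WT siGLO, 22.6, 14.6 and 17.2 in Stag1-/- siGLO, and 33.9, 46.3 and 43.3 in Stag2-/- siGLO. WT siStag1 gave 29.1, 12.9 and 17.4, and Stag2-/- siStag1 27.6, 18.7 and 29.3. Only the Stag2-/- siGLO libraries stood clear of the others, above them. Exons of Tfap2a overlap those of 3 antisense genes, Gm47061 by 265 bases, Gm26688 by 380 and Gm47067 by 73, and because no strand setting is given for the counts, reads of either strand cannot be told apart.

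Gata2 (chr6:88193891-88207032, plus strand), a factor of trophoblast and of blood progenitors, had 48.6, 59.99 and 101.6 normalized counts in WT siGLO, 72.8, 101.2 and 84.1 in Stag1-/- siGLO, and 46.6, 34.5 and 34.8 in Stag2-/- siGLO. The values were 29.1, 50.6 and 75.5 in WT siStag1 and 35.5, 30.2 and 31.3 in Stag2-/- siStag1. The highest WT siGLO library, replicate 3, was far above replicate 1, and the wild-type range nearly met that of Stag2-/- siGLO. Gata3 (chr2:9857078-9890034, minus strand) had 26.2, 29.5 and 27.1 in WT siGLO, 64.0, 76.9 and 31.6 in Stag1-/- siGLO, 9.52, 59.3 and 37.0 in Stag2-/- siGLO, 20.98, 19.3 and 13.5 in WT siStag1, and 13.8, 31.2 and 19.2 in Stag2-/- siStag1. Its replicates in both knockouts spread widely. Exons of Gata3 overlap the antisense gene Gm13256 by 155 bases and 9230102O04Rik, on the same strand, by 77, and the latter had at most 1 count in a library.

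Elf3 (chr1:135253575-135258568, minus strand), an epithelial ETS factor, had 589.95, 684 and 1069.5 normalized counts in WT siGLO, 463, 586 and 626 in Stag1-/- siGLO, and 249.7, 420.3 and 366 in Stag2-/- siGLO. It had 435, 549 and 640.4 in WT siStag1 and 214, 282 and 233 in Stag2-/- siStag1. Replicate 1 was the lowest library in all 5 conditions, and the 2 Stag2-/- conditions, which overlapped each other, lay below the other 3. Elf3 shares 162 exon bases with the antisense gene Gm26642.

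Hand1 (chr11:57828705-57832818, minus strand) had 20, 27 and 12 counts in WT siGLO, 102, 87 and 84 in Stag1-/- siGLO, and 20, 10 and 0 in Stag2-/- siGLO. WT siStag1 gave 14, 17 and 14 counts, and Stag2-/- siStag1 14, 8 and 14. The Stag1-/- siGLO libraries stood apart from all others, and no other pair of neighbours in the order of means was separate. Hand1 passed the filter on low counts in 13 libraries with 10 or more counts, and Gata3 in 14.

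Loss of STAG1 and loss of STAG2 were first each compared with WT siGLO, which asks how the programme stands in each clone. In Stag1-/- siGLO cells Hand1 rose, from 19.3 ± 7.93 to 87.0 ± 12.4 normalized counts (SD, n = 3), 4.51-fold or a log2 fold change of 2.17 ± 0.51 (SE), with an adjusted p of 0.00904 in edgeR's quasi-likelihood test. Tead4 fell, from 801 ± 132 to 604 ± 98.8 (log2 fold change -0.41 ± 0.13, edgeR adjusted p = 0.0533), although the ranges of the replicates overlapped. Thus 2 of the 7 genes tested passed the threshold of 0.1, where 20.0% of all genes did, 10.1% higher and 9.93% lower. The replicates of both conditions did not overlap for Hand1 and Gata3, 2 of 7, against 31.7% of all genes. The median log2 fold change of the 7 genes was -0.07, beside -0.01 over all genes.

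Gata3 and Elf3 missed the threshold here, and their calls changed with the fit. Gata3 was 2.08-fold higher in Stag1-/- siGLO, with a log2 fold change of 1.05 ± 0.47 and an edgeR adjusted p of 0.153, and Elf3 had a log2 fold change of -0.49 ± 0.22 with an adjusted p of 0.16. With the replicate number as a block in edgeR, Gata3 had an adjusted p of 0.0733 and Elf3 of 0.0191, which brought the count to 4 of 7, while the count over all genes went from 2907 to 4443. Gata3 also passed without the block when only the 6 libraries compared were fitted (edgeR adjusted p = 0.0443). Tfap2c (-0.26 ± 0.17), Gata2 (0.30 ± 0.31) and Tfap2a (-0.07 ± 0.39, log2 fold change ± SE) did not pass in either fit. The call of Tead4 rested on single libraries: its edgeR adjusted p was 0.206 without WT siGLO replicate 2, 0.168 without WT siGLO replicate 3 and 0.187 without Stag1-/- siGLO replicate 3. Without WT siGLO replicate 2 the count over all genes was 1915 in place of 2907. Elf3 passed without WT siGLO replicate 1 (adjusted p = 0.0822 in edgeR) and Gata3 without Stag1-/- siGLO replicate 3 (0.0845).

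In Stag2-/- siGLO cells the 3 well expressed genes and Gata2 fell, and Tfap2a rose. Tead4 fell to 0.398 of its WT siGLO level (319 ± 24.8 against 801 ± 132 normalized counts, log2 fold change -1.33 ± 0.14, edgeR adjusted p = 1.08e-05). Elf3 fell to 0.442 (345 ± 87.2 against 781 ± 254, log2 fold change -1.18 ± 0.22, edgeR adjusted p = 0.00181), and Tfap2c to 0.596 (489 ± 55.1 against 819.9 ± 68.7, log2 fold change -0.75 ± 0.17, edgeR adjusted p = 0.00594). Gata2 had 38.6 ± 6.87 normalized counts against 70.1 ± 27.9 (log2 fold change -0.86 ± 0.33, edgeR adjusted p = 0.0749). Tfap2a had 41.2 ± 6.51 against 18.9 ± 9.14, 2.16-fold more, with a log2 fold change of 1.11 ± 0.37 and an edgeR adjusted p of 0.0447.

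The count was 5 of 7, 4 lower and 1 higher, where 28.3% of all genes passed, 14.4% lower and 13.9% higher. For the same 5 genes the replicates of both conditions did not overlap, against 35.7% of all genes, which by itself fixes the direction of every same-numbered pair. The median log2 fold change was -0.84 over the 7 genes and 0.01 over all genes. Hand1 (-0.84 ± 0.60) and Gata3 (0.35 ± 0.48, log2 fold change ± SE) did not pass, and Hand1 passed without Stag2-/- siGLO replicate 1 (-1.82, edgeR adjusted p = 0.0633).

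The calls of the low genes in Stag2-/- siGLO rested on single libraries. The count over all genes also moved, from 4110 to 2524 without WT siGLO replicate 2. Tfap2a had an edgeR adjusted p of 0.181 without WT siGLO replicate 2, 0.135 without WT siGLO replicate 3 and 0.124 without Stag2-/- siGLO replicate 2. Gata2 had one of 0.364 without WT siGLO replicate 3, its highest library, where the log2 fold change was -0.49. Its edgeR adjusted p was 0.108 without WT siGLO replicate 2, 0.186 without Stag2-/- siGLO replicate 2, 0.169 without Stag2-/- siGLO replicate 3, and 0.113 when only the 6 libraries compared were fitted. Tead4, Elf3 and Tfap2c passed in every one of these fits.

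**Figure D2:**
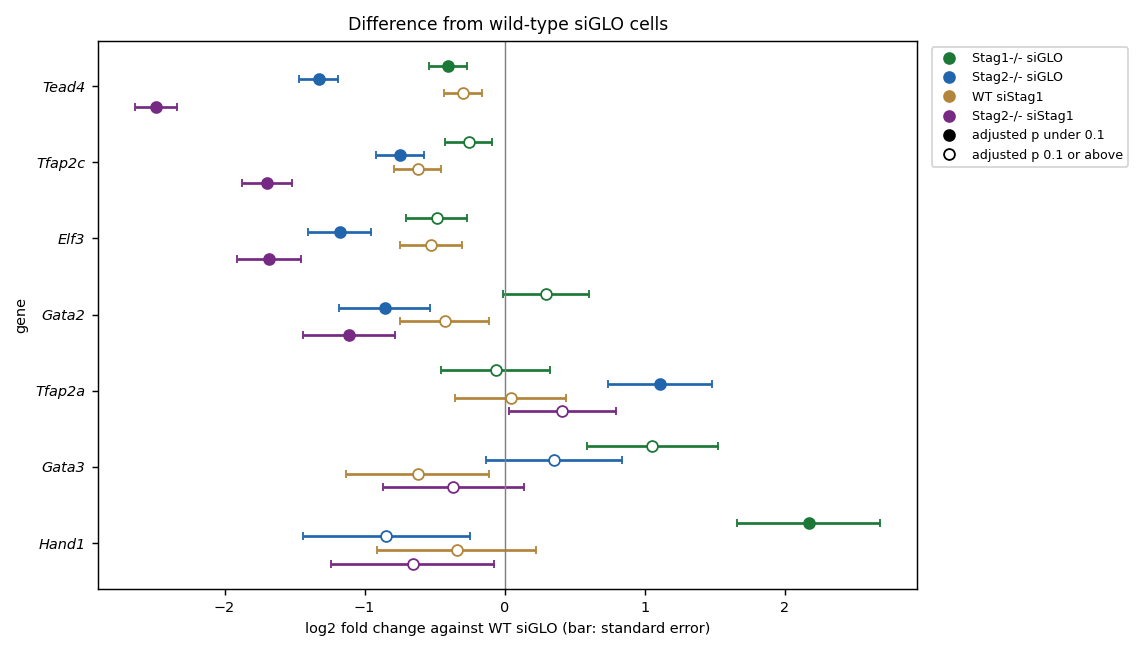
Log2 fold change of the 7 genes tested against WT siGLO (horizontal axis), with bars of 1 standard error, for Stag1-/- siGLO, Stag2-/- siGLO, WT siStag1 and Stag2-/- siStag1. Filled points have an edgeR adjusted p under 0.1. Tead4 reaches -2.49 in Stag2-/- siStag1, and Hand1 in Stag1-/- siGLO stands at 2.17.

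Set directly against each other, the knockout clones differed in most of these genes. Hand1 was 8.09-fold higher in Stag1-/- siGLO than in Stag2-/- siGLO (log2 fold change 3.02 ± 0.55, edgeR adjusted p = 0.00137). Tead4 was higher in Stag1-/- siGLO by 0.92 ± 0.14 on the log2 scale (edgeR adjusted p = 0.000292), Gata2 by 1.15 ± 0.32 (0.0218), Elf3 by 0.69 ± 0.22 (0.0426) and Tfap2c by 0.49 ± 0.17 (0.0562). Tfap2a was lower, at -1.18 ± 0.37 (edgeR adjusted p = 0.0383), and Gata3, at 0.70 ± 0.46, did not pass (0.314). Thus 6 of 7 genes passed, 5 higher and 1 lower, where 25.7% of all genes passed, and the replicates of the 2 clones did not overlap for the same 6, against 31.0% of all genes.

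Several of these calls between the clones were lost without a single library, although the differences kept their direction. With each library left out, the log2 fold change ran from 0.51 to 0.86 for Elf3, 0.40 to 0.58 for Tfap2c and -1.36 to -1.05 for Tfap2a. The edgeR adjusted p of Elf3 was 0.116 without Stag1-/- siGLO replicate 2, 0.118 without its replicate 3 and 0.141 without Stag2-/- siGLO replicate 1. That of Tfap2c was 0.165 without Stag1-/- siGLO replicate 1, 0.107 without its replicate 3 and 0.156 without Stag2-/- siGLO replicate 1, and that of Tfap2a was 0.133 without Stag1-/- siGLO replicate 2 and 0.108 without Stag2-/- siGLO replicate 2. Hand1, Tead4 and Gata2 passed in every fit with a library left out, but the size for Hand1 depended on the Stag2-/- siGLO libraries: its log2 fold change was 3.99 without replicate 1 and 2.43 without replicate 3, the library with 0 counts.

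Depletion of STAG1 for 48 h in wild-type cells changed none of the 7 genes past the threshold in edgeR's quasi-likelihood test, in a comparison where 0.248% of all genes passed, 0.103% higher and 0.145% lower. DESeq2 called 1 of the 7, beside 133 of 14259 genes. For 3 genes the unadjusted p in edgeR was under 0.05, beside 922 of the 14508 genes tested. The largest of these differences was that of Tfap2c, which had 533 ± 68.6 normalized counts in WT siStag1 against 819.9 ± 68.7 in WT siGLO, a log2 fold change of -0.62 ± 0.17 with an edgeR adjusted p of 0.277. Elf3 (541 ± 103 normalized counts, log2 fold change -0.53 ± 0.22) had an edgeR adjusted p of 0.694, and Tead4 (651 ± 27.5, -0.30 ± 0.13) one of 0.75. Gata3 was of similar size with a wider error, at -0.62 ± 0.51 (edgeR adjusted p = 0.999). The replicates did not overlap for Tfap2c and Gata3, 2 of 7, against 15.5% of all genes.

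The replicate block changed this comparison. With it, Tfap2c (edgeR adjusted p = 0.0648) and Elf3 (0.0938) passed, 2 of 7 genes, while the count over all genes went from 36 to 236. Tfap2c also passed in DESeq2 (adjusted p = 0.0642) and in edgeR on the 6 libraries compared alone (0.0561). Tead4, Tfap2c, Elf3, Gata2 and Gata3 were lower in WT siStag1 in all 3 same-numbered pairs. Tfap2a was higher in all 3, but only by 0.007, 0.174 and 0.073 on the log2 scale. Its fitted log2 fold change was 0.04 ± 0.39 (edgeR adjusted p = 0.999). How many of all genes kept 1 direction in all 3 pairs was not counted. The median log2 fold change was -0.43 over the 7 genes and -0.002 over all genes.

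With both proteins reduced, in Stag2-/- siStag1 cells, Tead4 and Tfap2c were lower in every library than in any library of the other conditions. Elf3 and Gata2 had their lowest means there, but overlapped with Stag2-/- siGLO. Against WT siGLO, Tead4 fell to 0.178 of its level (143 ± 9.55 against 801 ± 132 normalized counts, log2 fold change -2.49 ± 0.15, edgeR adjusted p = 8.11e-09). Tfap2c fell to 0.308 (253 ± 76.7 against 819.9 ± 68.7, log2 fold change -1.70 ± 0.18, edgeR adjusted p = 2.67e-06) and Elf3 to 0.311 (243 ± 35.1 against 781 ± 254, log2 fold change -1.69 ± 0.23, edgeR adjusted p = 3.67e-05). Gata2 fell to 32.3 ± 2.79 from 70.1 ± 27.9 (log2 fold change -1.11 ± 0.33, edgeR adjusted p = 0.0152), a call lost without WT siGLO replicate 3 (-0.75, adjusted p = 0.107). Tfap2a (0.41 ± 0.38), Gata3 (-0.37 ± 0.50) and Hand1 (-0.66 ± 0.58, log2 fold change ± SE) did not pass. Thus 4 of 7 genes passed, all lower, where 43.9% of all genes passed, 22.6% higher and 21.3% lower, and the replicates did not overlap for the same 4, against 47.3% of all genes. These comparisons share the WT siGLO libraries, so their values are given side by side only.

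The effect of siStag1 in Stag2-/- cells was measured against Stag2-/- siGLO and not against WT siGLO. Its test still took the spread and the filter from the fit of all 15 libraries. Tead4 fell to 0.447 of its Stag2-/- siGLO level (143 ± 9.55 against 319 ± 24.8 normalized counts, log2 fold change -1.16 ± 0.15, edgeR adjusted p = 0.000233), and Tfap2c to 0.517 (253 ± 76.7 against 489 ± 55.1, -0.95 ± 0.18, adjusted p = 0.00566). They were 2 of 7 genes, where 6.37% of all genes passed, 2.98% higher and 3.39% lower. The replicates did not overlap for these 2 and for Tfap2a, 3 of 7, against 19.3% of all genes. Tfap2a had 25.2 ± 5.69 normalized counts in Stag2-/- siStag1 against 41.2 ± 6.51 in Stag2-/- siGLO (log2 fold change -0.70 ± 0.36, edgeR adjusted p = 0.352). Elf3 (-0.51 ± 0.23, edgeR adjusted p = 0.276) passed with the replicate block (0.0475), and Tfap2c did not pass when only the 6 libraries compared were fitted (0.116).

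Whether the siStag1 effect differed between the genotypes was tested as an interaction. For Tead4 it was -1.16 ± 0.15 in Stag2-/- and -0.30 ± 0.13 in wild-type cells on the log2 scale, a difference of -0.86 ± 0.20 with an unadjusted p of 0.000495 and an edgeR adjusted p of 0.183. None of the 7 genes passed in edgeR, where 0.159% of all genes did, 0.0207% higher and 0.138% lower. Of the 7, 1 had an unadjusted p under 0.05 in edgeR, beside 842 of the 14508 genes tested. DESeq2 called 1, Tead4 (adjusted p = 0.0219), beside 102 of 14259 genes. For Tfap2c the difference was -0.33 ± 0.24 (edgeR adjusted p = 0.96), and for Elf3 it was 0.02 ± 0.32 (0.999). Stag1 itself had a siStag1 log2 fold change of -2.28 in wild-type and -1.53 in Stag2-/- cells (interaction 0.75 ± 0.19, edgeR adjusted p = 0.254). Stag2 had 907 ± 49.4 normalized counts in Stag2-/- siStag1 against 692 ± 40.9 in Stag2-/- siGLO (edgeR adjusted p = 0.0808). The part of these differences in the interaction of the 7 genes was not tested.

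**Figure D3:**
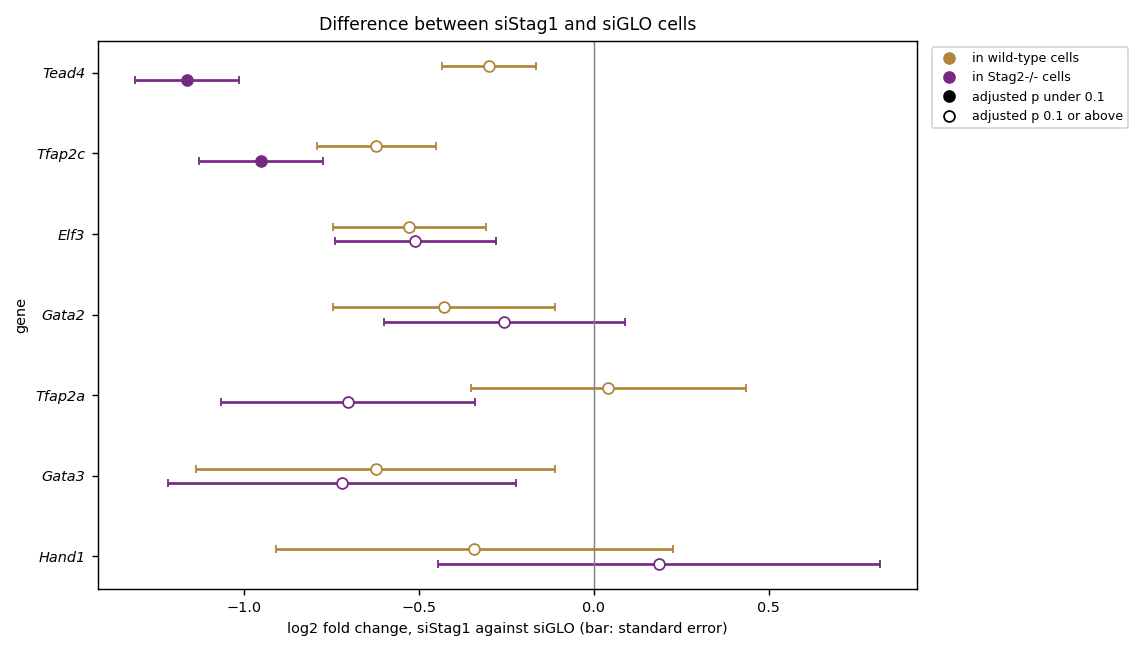
Log2 fold change of siStag1 against siGLO (horizontal axis), with bars of 1 standard error, in wild-type and in Stag2-/- cells, for the 7 genes tested. Filled points have an edgeR adjusted p under 0.1. Tead4 stands at -1.16 in Stag2-/- and -0.30 in wild-type cells, whereas the Elf3 points, at -0.51 and -0.53, lie together.

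Other trophectoderm and trophoblast stem cell genes, a list of 22 of which 20 were tested, moved in both directions. In Stag1-/- siGLO 9 rose and 2 fell, where 10.1% of all genes were higher and 9.93% lower. Those that rose included Krt7, Krt8 and Krt18, keratins of simple epithelia, as well as Cdx2, Fgfr2, Wnt7b and Bmp8b. Krt7 went from 90.3 ± 30.1 to 485 ± 99.3 normalized counts (log2 fold change 2.43 ± 0.24, edgeR adjusted p = 9.32e-06), and Fgfr2, the receptor through which FGF4 maintains trophoblast stem cells, from 186 ± 5.40 to 565 ± 14.7 (1.60 ± 0.17, adjusted p = 1.6e-05 in edgeR). Cdx2, a trophectoderm homeobox factor, was at 10.9 ± 3.38 and 36.0 ± 17.1 (1.71 ± 0.65, edgeR adjusted p = 0.0937). In Stag2-/- siGLO 1 rose and 9 fell, where 13.9% of all genes were higher and 14.4% lower. Among those that fell were Esx1 (log2 fold change -1.45 ± 0.29, edgeR adjusted p = 0.00242) and Eomes (-0.88 ± 0.24, edgeR adjusted p = 0.018), whose replicates overlapped between the conditions and which is also on the list of mesoderm and amnion-type markers. In Stag2-/- siStag1 2 rose and 11 fell, against 22.6% and 21.3% of all genes. In WT siStag1 none of the 20 passed in edgeR or in DESeq2, and for 2, Id2 and Atp1b1, the unadjusted p in edgeR was under 0.05.

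Dab2, which had the largest fall of this list in Stag1-/- siGLO (from 1809 ± 139 to 152 ± 38.8 normalized counts, log2 fold change -3.57 ± 0.16, edgeR adjusted p = 2.16e-09), is also on the list of primitive endoderm markers. Directly between the clones, 14 of the 20 were higher and 2 lower in Stag1-/- siGLO than in Stag2-/- siGLO, where 12.7% of all genes were higher and 12.9% lower. Wnt7b had 589 ± 149 normalized counts in Stag1-/- siGLO, 143 ± 27.1 in WT siGLO and 61.4 ± 32.4 in Stag2-/- siGLO. The median log2 fold change of the list against WT siGLO was 0.13 in Stag1-/- siGLO, -0.57 in Stag2-/- siGLO and -0.71 in Stag2-/- siStag1, beside -0.01, 0.01 and 0.01 over all genes.

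Of the 25 placental differentiation genes 13 were tested. In Stag1-/- siGLO 4 rose and 0 fell, or 30.8% beside 20.0% of all genes: Igf2, a placental and fetal growth factor, the imprinted Peg10, and the homeobox genes Rhox6 and Rhox9. Rhox6 went from 51.1 ± 9.80 to 371 ± 26.6 normalized counts (log2 fold change 2.86 ± 0.26, edgeR adjusted p = 2.31e-06) and Igf2 from 697 ± 127 to 3203 ± 116 (2.20 ± 0.15, adjusted p = 1.86e-07 in edgeR). In Stag2-/- siGLO 0 rose and 4 fell, Ascl2, Cited1, Cited2 and Flt1, in Stag2-/- siStag1 0 rose and 6 fell. These shares, 30.8% and 46.2%, lie near the 28.3% and 43.9% of all genes called in the same comparisons. In WT siStag1 none passed in edgeR or in DESeq2, and for 2 the unadjusted p in edgeR was under 0.05. Ascl2, which maintains the spongiotrophoblast layer, had a log2 fold change of -0.96 ± 0.32 in Stag2-/- siGLO (edgeR adjusted p = 0.0454). The other 12 of the 25 were too low to test.

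The other TEAD genes and the Hippo pathway, 20 genes all tested, showed no single direction. In Stag1-/- siGLO 7 rose and 3 fell, in Stag2-/- siGLO 2 rose and 5 fell, and in Stag2-/- siStag1 5 rose and 6 fell. That is 10, 7 and 11 of 20, where 20.0%, 28.3% and 43.9% of all genes passed, so the last 2 counts are not far from the background. With the replicate block 11 of 20 passed in Stag2-/- siGLO, where 5723 of 14508 genes did. In WT siStag1 none passed in edgeR, 2 had an unadjusted p under 0.05 and DESeq2 called 1. Tead3 rose in both knockouts, where Tead4 fell, from 94.96 ± 11.8 normalized counts to 194 ± 21.8 in Stag1-/- siGLO (log2 fold change 1.03 ± 0.23, edgeR adjusted p = 0.00697) and 198 ± 50.5 in Stag2-/- siGLO (1.06 ± 0.23, 0.00465). Tead2 rose in Stag2-/- siGLO, from 2620.03 ± 187 to 3686 ± 839.9 (0.49 ± 0.16, edgeR adjusted p = 0.0373). Vgll4, a cofactor that competes with YAP for TEAD factors, rose in Stag1-/- siGLO (0.89 ± 0.29, edgeR adjusted p = 0.0478). Yap1, the coactivator, had log2 fold changes of 0.20 ± 0.08 and 0.14 ± 0.09 in Stag1-/- siGLO and Stag2-/- siGLO, with edgeR adjusted p-values of 0.14 and 0.246. It was among the 5 genes that rose in Stag2-/- siStag1, with 4524 ± 466 normalized counts against 3737 ± 72.5 in WT siGLO. The TEAD target Ankrd1 fell in both knockouts, by 1.44 and 2.40 on the log2 scale (edgeR adjusted p = 0.0509 and 0.00349). In Stag2-/- siGLO it had 63.5, 14.0 and 9.50 normalized counts in replicates 1, 2 and 3, so the size there depends on replicate 1. WT siGLO had 147, 170 and 145. Of 2 other TEAD targets on the list, Ctgf passed in neither knockout (log2 fold changes -0.10 ± 0.17 and -0.09 ± 0.17, edgeR adjusted p = 0.753 and 0.744). Cyr61 stood at 0.36 ± 0.16 in Stag1-/- siGLO (edgeR adjusted p = 0.159) and fell in Stag2-/- siGLO (-0.69 ± 0.17, 0.00844). Amot, which holds YAP outside the nucleus, fell by 1.07 and 0.86 (edgeR adjusted p = 5.03e-05 and 0.000294).

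Relatives of the 9 genes in the GATA, ELF, AP-2 and HAND families and their cofactors were a list of 14, with 9 tested. In Stag1-/- siGLO 2 rose and 3 fell, in Stag2-/- siGLO and Stag2-/- siStag1 1 rose and 4 fell each. The share called was 55.6% in each of the 3, beside 20.0%, 28.3% and 43.9% of all genes. In WT siStag1 none passed in edgeR or in DESeq2, and 0 had an unadjusted p under 0.05 in edgeR. Gata4 and Gata6, which are also on the list of primitive endoderm markers, were among those that fell in all 3. Gata6 had 489 ± 59.7 normalized counts in WT siGLO, 44.9 ± 17.7 in Stag1-/- siGLO and 99.1 ± 64.5 in Stag2-/- siGLO. Elf4 fell by 0.76 on the log2 scale in Stag1-/- siGLO and by 1.14 in Stag2-/- siGLO (edgeR adjusted p = 0.036 and 0.00298). Zfpm1, a GATA cofactor, had 305 ± 51.6 normalized counts in WT siGLO and 184 ± 38.3 in Stag2-/- siGLO (edgeR adjusted p = 0.00525).

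Markers of other cell types were read beside these genes, with 20.0% of all genes called in Stag1-/- siGLO, 28.3% in Stag2-/- siGLO and 43.9% in Stag2-/- siStag1. Of 10 embryonic stem cell markers 1 rose and 1 fell in Stag1-/- siGLO, 1 rose and 4 fell in Stag2-/- siGLO, and 1 rose and 7 fell in Stag2-/- siStag1. The 2 calls in Stag1-/- siGLO became 6 with only the libraries compared, where 2832 of 13841 genes passed. They became 4 with the replicate block, where 4443 of 14508 did. In Stag2-/- siStag1, where Tead4 and Tfap2c were lowest, Esrrb had 1862 ± 461 normalized counts against 11606 ± 723 in WT siGLO, and Klf4 878 ± 248 against 3900.04 ± 81.1. Surface ectoderm and neural crest are tissues in which Tfap2a is also known, and of their 7 markers tested 2 rose and 0 fell in Stag2-/- siGLO, Epcam and Pax3, 2 rose and 1 fell in Stag1-/- siGLO, and 3 rose and 1 fell in Stag2-/- siStag1. The 2 of 7 in Stag2-/- siGLO, 28.6%, is at the background in this fit. With the replicate block 5 of the 7 passed there, where 5723 of 14508 genes did. The part of these markers in the differences of the trophoblast lineage genes was not tested. Of 10 mesoderm and amnion-type markers tested, 1 rose and 1 fell in Stag1-/- siGLO, 1 rose and 3 fell in Stag2-/- siGLO, and 1 rose and 5 fell in Stag2-/- siStag1. The 2 of 10 in Stag1-/- siGLO is likewise at the share over all genes. Tbx3, which is on that list, was the 1 gene of all lists that passed in WT siStag1 in edgeR (1170 ± 138 against 2143 ± 119 normalized counts, log2 fold change -0.87 ± 0.13, edgeR adjusted p = 0.0225). Fibroblast markers, which would show feeder cells, had a summed level of 16.5 to 37.1 CPM over 7 genes in all libraries, and of the 4 tested Col3a1 rose in Stag2-/- siGLO and Stag2-/- siStag1. Its normalized counts in replicates 1, 2 and 3 were 96.3, 21.6 and 8.45 in Stag2-/- siGLO and 84.8, 21.8 and 9.10 in Stag2-/- siStag1. WT siGLO had 4.67, 10.2 and 14.5, so the ranges overlapped and replicate 1 carried most of the rise.

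**Figure D4:**
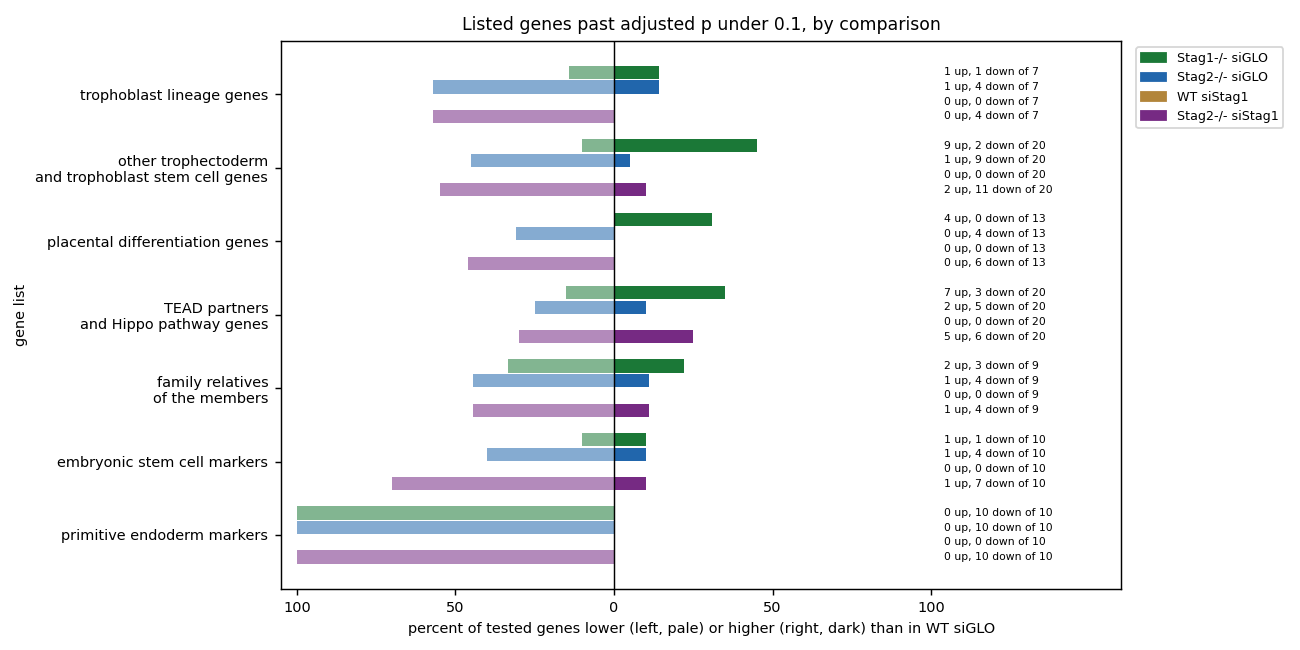
Percent of tested genes of each list that were lower (left, pale) or higher (right, dark) than in WT siGLO at an edgeR adjusted p under 0.1, by comparison, with the counts printed at the right. The trophectoderm and placental lists extend to the right in Stag1-/- siGLO, with 9 and 4 genes higher, and to the left in Stag2-/- siGLO, with 9 and 4 lower, while the primitive endoderm markers are lower in both.

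The genes most like each trophoblast lineage gene across the 15 libraries were named by the mean absolute difference of centred log2 levels. For Tead4 they were Cdyl2 (0.146) and Gjb5 (0.161), beside a median of 0.814 over all genes tested. Tfap2c was nearest to Jam2 (0.159) and Alpk3 (0.175), with a median of 0.532, and Elf3 to Fam81a (0.159) and Ndrg1 (0.175), with a median of 0.571. Gata2 was nearest to Prosapip1 (0.199) and Slc12a4 (0.221), Tfap2a to Gap43 (0.199) and Ybey (0.276), Gata3 to Ckb (0.362) and Mfsd6 (0.366), and Hand1 to AU015836 (0.433) and Sh3rf2 (0.438). None of these nearest genes is another gene of the trophoblast list.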

How the data were processed

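PolyA RNA-seq was performed on 15 libraries of v6.5 mESCs. Reads had been aligned to mm10 by the authors, who used STAR and deposited the raw count of each gene, and DESeq2 is also named in the submitters' processing notes. The counting tool, annotation and strand setting are not given in the sources used here. Summary lines, 19.8 to 23.4% of the entries of a library, were left out of library sizes and tests. Depth was 14982560 to 19070126 counts on genes. Values between 0 and 3 counts carry little precision, and floors cover counting error only.

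Counts were analysed in R 4.3.3 with edgeR 4.0.16: TMM normalization after filterByExpr (by condition, with a minimum count of 10 and a minimum total of 15), glmQLFit over all 15 libraries, two-sided glmQLFTest contrasts and Benjamini-Hochberg adjustment over 14508 genes, with a threshold of 0.1. The SE is the log2 fold change divided by the square root of F. On simulated data for Stag2-/- siGLO against WT siGLO, 156 of 200 genes changed 2-fold were recovered and 18 of 14111 unchanged genes were called, over 14309 genes. An exact permutation test of 3 libraries against 3 cannot go below 0.1.

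The 9 genes and the other lists were chosen with earlier results of these data known. Of each other list, at most 4 genes were to be named, those with the largest absolute log2 fold change among genes that passed in a comparison with WT siGLO and had a mean normalized count of at least 50. Further listed genes in the text were chosen after their values were seen. Nearest genes were 2 for each gene tested, on log2 levels with a prior count of 2. Levels per kilobase use the exons of GENCODE M21, and promoter sequences come from RefSeq.

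The replicate numbers in the sample titles were checked for pairing: deviations from the group means over 11529 genes had a mean correlation of 0.311 in 30 same-numbered pairs and of -0.152 in 60 others. All 3 same-numbered pairs were above 0.1 in each comparison of 2 conditions except Stag2-/- siStag1 against WT siGLO (0.437, 0.047 and 0.397). The sources do not say if they shared a day or batch. The alternatives were DESeq2 1.42.0, DESeq2 size factors, library size alone, no filter, a filter of at least 10 counts in every library, a fit of only the libraries compared, a threshold of 0.05, the replicate number as a block, and leaving out each library in turn.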

Additional observations from a re-analysis of the deposited data

How the results depend on the processing

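The number of the 7 genes called, 2 in Stag1-/- siGLO against WT siGLO, was 1 with at least 10 counts required in every library. That filter removed Hand1 and Gata3, with lowest counts of 0 and 9, from the test. Hand1 passed in all 7 other settings that tested it. The number was 1 at a threshold of 0.05, 3 with only the libraries compared, 4 with the replicate block, and 1 to 3 with single libraries left out. Over all genes these first 4 settings gave 2526, 2044, 2832 and 4443 calls. In Stag2-/- siGLO the 5 calls became 3 to 6 with single libraries left out. In WT siStag1 the count of 0 became 1 in DESeq2, 1 with only the libraries compared and 2 with the replicate block, and the count over all lists went from 1 to 3, 4 and 4. For siStag1 in Stag2-/- cells, fitting only the libraries compared gave 1 call in place of 2, and 10 in place of 18 over all lists. For the interaction, DESeq2 and the replicate block each called 1 of the 7 genes, Tead4, and 8 and 10 genes over all lists in place of 5, while only the libraries compared and a threshold of 0.05 left 2 each. The same-number correlations do not all pass 0.1 for the conditions of the interaction, so its block is given here only. The block changed no call of the 7 genes other than those given here and beside the results. Values near 0 changed sign: the interaction of Elf3 was -0.009 without the filter, and with single libraries left out it ran from -0.28 to 0.18, that of Gata2 from -0.20 to 0.54, of Gata3 from -0.55 to 0.50 and of Hand1 from -0.057 to 1.502. In the same way Tfap2a ran from -0.33 to 0.39 in Stag1-/- siGLO and from -0.33 to 0.49 in WT siStag1, Gata3 from -0.25 to 0.80 in Stag2-/- siGLO, and Hand1 from -0.40 to 1.16 for siStag1 in Stag2-/- cells. The cause of these changes was not tested. Over all genes, calls ran with single libraries left out from 1915 to 3259 in Stag1-/- siGLO (2907 with all) and from 2524 to 4564 in Stag2-/- siGLO (4110 with all). They went from 36 to 133 in DESeq2, 126 with only the libraries compared, 22 at the threshold of 0.05, 236 with the block and 1 to 57 with single libraries left out in WT siStag1, from 3722 to 2406 with only the libraries compared between the clones, from 924 to 224, 548 and 2049 (only the libraries compared, threshold, block) for siStag1 in Stag2-/- cells, and from 23 to 102 in DESeq2 and 138 with the block for the interaction. With single libraries left out, the last 2 ran from 416 (without Stag2-/- siStag1 replicate 3) to 1484 (without its replicate 1), with 535 without its replicate 2, and from 13 (without WT siGLO replicate 2 or any WT siStag1 library) to 76 (without Stag2-/- siStag1 replicate 1). Depth limits Elf5 and Plac1, which were too low to test.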
